A study of Mus musculus with 9 samples.

Results

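Monocytes of mice without the chemokine receptor gene Ccr2 were compared directly with monocytes of mice without Ccl2, the gene of the main ligand of that receptor. The comparison took the 3 arrays labelled Ccr2-/- and the 3 arrays labelled Ccl2-/-, which are 6 of the 9 arrays of the series, and it was made across 19938 genes. The 3 wild type arrays served to place each gene, that is, to show on which side of wild type each knockout lay. They also entered the estimate of the spread behind each p-value. Every array held the RNA of circulating monocytes pooled from 5 mice of 1 genotype. All mice were tumor-free, untreated, adult (14 to 18 weeks) and of the Balb/c strain, and the knockouts carried a targeted deletion of Ccl2 or of Ccr2 in all of their cells. Magnetic columns first removed cells that displayed CCR3, Ly-6G, MHC class II, B220, CD8 or CD4, and the remaining cells with CD11b were kept. By the study's own criteria, monocytes also lack NK1.1, an NK cell marker, and CD11c, a dendritic cell marker, but neither is among the antibodies listed for the columns. Values are log2 intensities of Affymetrix Mouse Gene 1.0 ST arrays, which read a transcript with probes along its length, and differences between genotypes are differences of log2 means.

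CCL2 is a chemokine that attracts monocytes, and CCR2 is the receptor on the monocyte surface through which it signals. CCR2 also binds CCL7 and CCL12, so that the loss of the ligand gene and the loss of the receptor gene need not be the same. In mouse blood, inflammatory Ly-6Chi monocytes carry CCR2 and leave the bone marrow with its help, whereas patrolling Ly-6Clo monocytes carry little of it.

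The Ccr2 signal read 13.26, 13.02 and 12.99 in the wild type arrays, 12.61, 12.73 and 12.93 in the Ccl2-/- arrays, and 9.41, 9.44 and 9.47 in the Ccr2-/- arrays. The 3 arrays labelled Ccl2-/- lay below all wild type arrays by a small step (log2 difference of means -0.33), and those labelled Ccr2-/- lay far below both groups, at 0.1004-fold of Ccl2-/- (log2 difference -3.32 ± 0.10, SE, n = 3 against 3 arrays, limma adjusted p = 4.81e-06). The Ccl2 signal read 8.90, 9.22 and 8.82 in wild type, 9.87, 9.27 and 9.23 in the arrays labelled Ccl2-/-, and 8.65, 8.85 and 8.94 in the Ccr2-/- arrays. It was not lower in the arrays labelled Ccl2-/-. The sources used here do not say whether its probes fall inside the deletion, so it is no check of that label. Throughout, Ccl2-/- stands for the arrays with that label. The array medians were 324.1 to 355.1 on the linear scale in 8 arrays and 430.8 in Ccl2-/- replicate 1, which lay farthest of its group for 12466 genes. Where that array moved the count of called genes, over all genes or in a list, both counts are given.

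**Figure D1:**
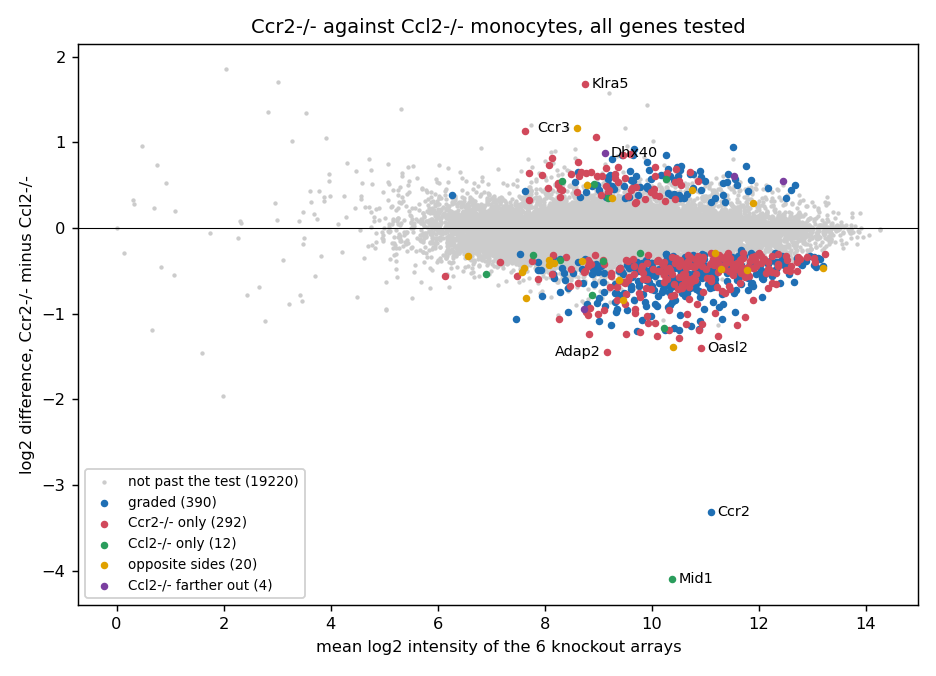
Log2 difference of Ccr2-/- minus Ccl2-/- monocytes (vertical axis) against the mean log2 intensity of the 6 knockout arrays (horizontal axis), with 1 point per gene. Coloured points are the 718 genes past the test, by their place relative to the wild type arrays, and Mid1 and Ccr2 lie far below all others at -4.10 and -3.32.

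Most genes that differed between the receptor knockout and the ligand knockout were lower in the receptor knockout. At an adjusted p under 0.05 (limma, Benjamini-Hochberg over all genes), 718 genes differed, 3.6% of those tested. Of these, 146 were higher in Ccr2-/- (0.732% of genes tested) and 572 were lower (2.87%). The 6 knockout arrays did not overlap in any of the 718 genes, against 4704 genes (23.6%) without overlap among all tested. Differences were moderate, with a median size of 0.51 on the log2 scale. Only 43 genes passed 2-fold, 39 of them lower and 4 higher in Ccr2-/-. The split into higher and lower depends on how the arrays are scaled. As deposited, 20.3% of the called genes were higher in Ccr2-/-, whereas quantile normalization gave 185 higher and 283 lower genes (39.5% higher) and centring each array on its median gave 187 higher and 74 lower (71.6% higher). The median of all genes was -0.08 as deposited, -0.04 after quantile normalization and 0.03 after centring, which moved every gene by 0.11. All 718 genes kept their direction under both scalings. Centring could not have turned any of them, since the smallest called difference was 0.256 in size. In bulk RNA, fewer cells of a type and less RNA per cell cannot be told apart, and this holds for each group of genes below.

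The number of calls rested on single arrays. Among the Ccl2-/- arrays, it was 1189 with replicate 1 left out, 351 with replicate 2 left out and 148 with replicate 3 left out. Among the Ccr2-/- arrays, it was 23, 22 and 286 with replicate 1, 2 or 3 left out. Leaving out a wild type array, which only adds to the estimate of the spread, gave 292 to 337 calls. Since the knockout arrays did not overlap in any of the 718 genes, leaving out an array could not turn a direction. Of the 718 genes, 698 lost their call in at least 1 of these fits. The 20 genes called in each of the 9 fits were Mid1, Ccr2, Adap2, Oasl2, Xaf1, Oas2, Fos, Thbs1, Abca9, Ms4a8a, Itgb3, Cd177, Ifi44l, Stard8, Cyp27a1, Ahr, Abcd2 and Marchf1, all lower in Ccr2-/-, together with Ccr3 and Dhx40, both higher. A fit of the 6 knockout arrays alone, in which wild type adds nothing to the spread, called 17 genes. Of the 20 genes above, 14 were among them, and Adap2, Oas2, Ifi44l, Ahr, Abcd2 and Marchf1 were not. The study's own size limits, a ratio of group means over 1.2 and a difference over 100 linear units, take no account of the spread between arrays. They were passed by 2518 genes (12.6%), 691 higher (3.47%) and 1827 lower (9.16%) in Ccr2-/-, and 686 of the 718 called genes were among them.

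**Figure D2:**
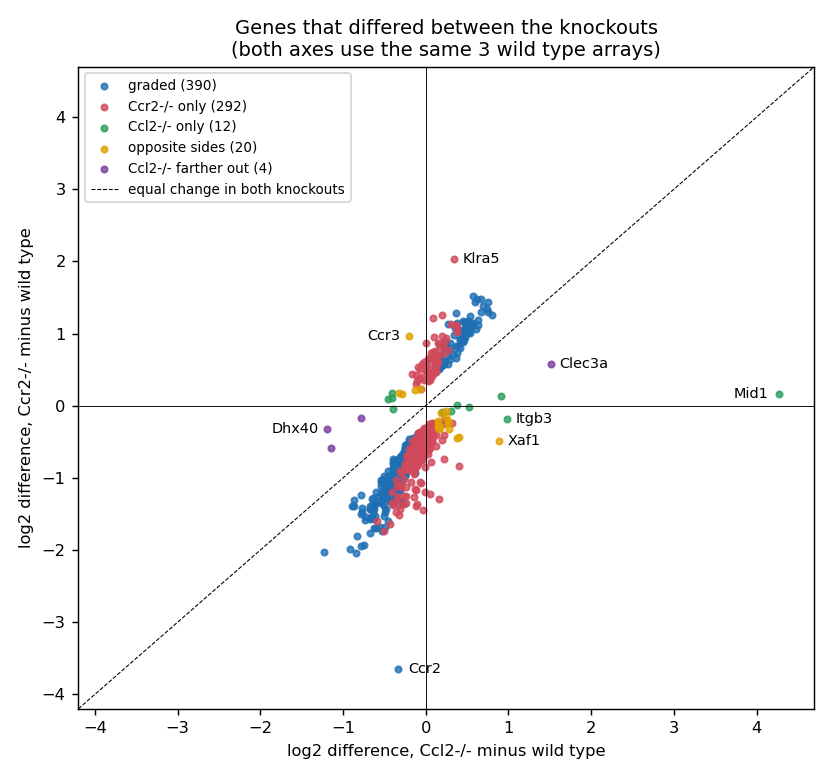
For the 718 genes past the direct test, the log2 difference of Ccl2-/- minus wild type (horizontal axis) and of Ccr2-/- minus wild type (vertical axis), 1 point per gene and both axes with the same 3 wild type arrays. Most points lie farther from 0 along the vertical than along the horizontal axis, Mid1, Itgb3 and Xaf1 lie to the right, and Dhx40 and Ccr3 lie to the left.

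The wild type arrays split the 718 genes into 2 large and 3 small groups. In 390 genes (54.3%) the 3 genotypes were graded, with no overlap of arrays and with Ccl2-/- between wild type and Ccr2-/-. Of all genes tested, 6.53% had that order. Of the graded genes, 313 were lower and 77 higher in Ccr2-/-, and their median size of change from wild type was 0.32 in Ccl2-/- and 0.86 in Ccr2-/- on the log2 scale. In 292 genes (40.7%, against 9.95% of all genes) the Ccr2-/- arrays lay outside the wild type range while the Ccl2-/- arrays overlapped it. Of these receptor-only genes, 235 were lower and 57 higher, and the median size of change from wild type was 0.10 in Ccl2-/- and 0.57 in Ccr2-/-. An overlap of arrays does not show that Ccl2-/- equalled wild type. In 12 genes (2.07% of all genes had that placement) Ccl2-/- alone left the wild type range, in 20 genes (0.291%) the knockouts lay on opposite sides of it, and in 4 genes Ccl2-/- lay farther out than Ccr2-/- on the same side. Since the direct test chose these genes, the shares describe them and test nothing further.

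Interferon-stimulated genes are switched on when type I interferon binds its receptor, and many of them hold back viruses. Of 28 measured members, 19 were called lower in Ccr2-/- than in Ccl2-/- and none higher, against 2.87% of all genes called lower. The list's median was -0.76 (0.592-fold), against -0.08 for all genes. Its median difference from wild type was -0.13 in Ccl2-/- and -1.04 in Ccr2-/-. Of the 28, 22 had the receptor-only placement, against 9.95% of all genes. Oasl2, a 2'-5' oligoadenylate synthetase-like protein, read 11.43, 11.82 and 11.69 in wild type, 11.48, 11.49 and 11.86 in Ccl2-/-, and 10.31, 10.23 and 10.09 in Ccr2-/-. The wild type and Ccl2-/- arrays mixed and the Ccr2-/- arrays lay below all of them, at 0.378-fold of Ccl2-/- (adjusted p = 0.00528). Oas2, an enzyme that makes the signal for RNA cleavage by RNase L, read 11.17, 10.90 and 11.39 in Ccl2-/- and 9.97, 9.83 and 9.82 in Ccr2-/- (0.411-fold, adjusted p = 0.00482). Oasl1 was 0.416-fold, Oas3 0.492-fold and Oas1a 0.542-fold of Ccl2-/-, so the 5 members of this family in the list were all called lower.

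Ifit3, which binds viral RNA with its partners, read 10.53, 10.99 and 10.94 in wild type, 10.11, 10.24 and 10.82 in Ccl2-/-, and 9.28, 9.17 and 9.08 in Ccr2-/- (0.431-fold, adjusted p = 0.02). Usp18, which removes ISG15 from proteins and dampens the interferon receptor, was 0.438-fold, Rtp4 0.465-fold, Ifi27l2a 0.459-fold and Ifit1 0.494-fold of Ccl2-/-. Mx2, a dynamin-like antiviral GTPase, was 0.480-fold (adjusted p = 0.0405), whereas its relative Mx1 had a log2 difference of -0.70 and did not pass (adjusted p = 0.0619). The RNA sensors differed among themselves. Ifih1, the sensor MDA5, was 0.648-fold and Dhx58, the sensor LGP2, was 0.608-fold, while Ddx58, the sensor RIG-I, had a log2 difference of -0.10 ± 0.07 (SE) and did not pass (adjusted p = 0.48). Isg20, Cmpk2, Trim30d, Bst2 and Irf7 completed the called members at 0.576-fold to 0.777-fold together with Xaf1 at 0.383-fold. The list had 12 calls after quantile normalization and 7 after centring, with medians of -0.71 and -0.65. It had 21 calls without Ccl2-/- replicate 1, 4 without Ccr2-/- replicate 1 or replicate 2 and 9 without Ccr2-/- replicate 3. Related genes such as those of the Oas, Ifit, Mx, Trim30, Schlafen and Ly49 families are similar in sequence, and how far their probes read each other was not tested.

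**Figure D3:**
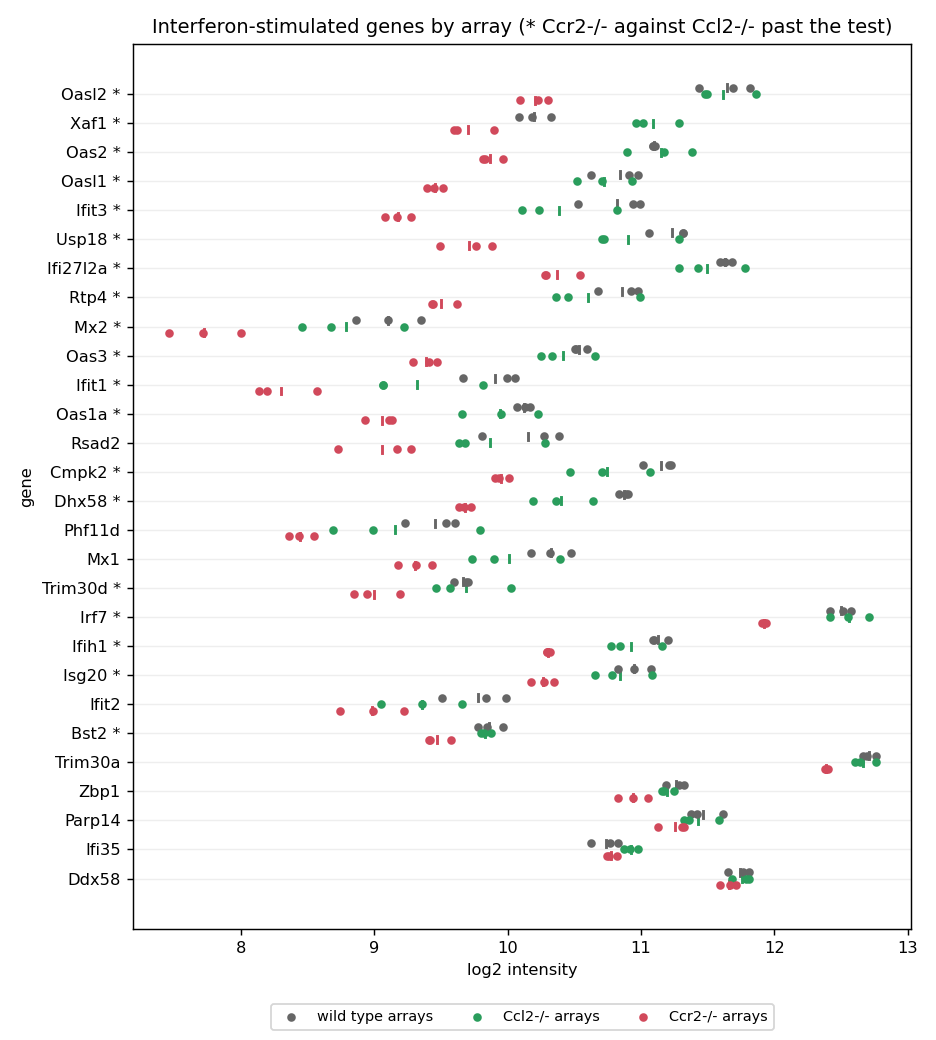
Log2 intensity (horizontal axis) of the 28 interferon-stimulated genes measured, with 1 point per array, a vertical tick at each genotype's mean and stars at the 19 genes past the direct test. The Ccr2-/- arrays lie to the left of the wild type and Ccl2-/- arrays in most rows. Xaf1 and Ifi35 are among the rows in which the Ccl2-/- arrays lie to the right of wild type.

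The promoters of these genes often carry the interferon-stimulated response element, a site at which interferon regulatory factors bind. The letters GAAANNGAAA, or TTTCNNTTTC on the other strand, were searched in the 250 bases before the start of each gene, with overlapping matches counted (RefSeq promoter sequences, GRCm38.p6). Of 15562 tested genes with a promoter sequence, 529 held a match (3.4%). Among genes called lower in Ccr2-/- it was 30 of 455 (6.59%), among those called higher 1 of 120 (0.833%), and among the interferon-stimulated genes 8 of 19 (42.1%). Matches were present in 6 of 13 called members of that list and in 2 of 6 members that were not called. A match of letters describes the sequence and does not show that a factor was bound in these cells. The 6 called members with a match are shown with 70 bases around it, 5' to 3' in the direction of the gene, with the match in capitals. Ifit1 is at chr19:34640774-34640843 (+), Ifit3 at chr19:34583377-34583446 (+), Oas1a at chr5:120907526-120907595 (-), Oas3 at chr5:120777695-120777764 (-), Trim30d at chr7:104507851-104507920 (-) and Bst2 at chr8:71537557-71537626 (-).
Ifit1: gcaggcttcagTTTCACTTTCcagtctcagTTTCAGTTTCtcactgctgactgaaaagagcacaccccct
Ifit3: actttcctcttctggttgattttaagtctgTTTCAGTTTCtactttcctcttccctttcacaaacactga
Oas1a: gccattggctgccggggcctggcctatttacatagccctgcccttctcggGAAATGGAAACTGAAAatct
Oas3: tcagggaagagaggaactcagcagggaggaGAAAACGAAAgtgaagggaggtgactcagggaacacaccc
Trim30d: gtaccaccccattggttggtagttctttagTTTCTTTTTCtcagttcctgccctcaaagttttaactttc
Bst2: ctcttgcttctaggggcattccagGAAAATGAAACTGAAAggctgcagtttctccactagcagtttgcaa
In these windows Ifit1 holds 2 separate matches, and in Oas1a and Bst2 a pair of matches overlap in 1 run. Ifit3 has 2 matches in the 250 bases searched, of which 1 lies in its window. The windows of Ifit1 and Ifit3, both on chromosome 19, share the same variant TTTCAGTTTC. Bst2, with 2 matches in its window, was 0.777-fold and Oas3, with 1, was 0.492-fold of Ccl2-/-.

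Interferon regulatory factors act on the promoters of interferon-stimulated genes. Of 8 measured, 3 were called lower in Ccr2-/- and none higher, against 2.87% of all genes called lower. The list's median was -0.19, and 5 of its genes had a negative and 3 a positive difference. Irf7, the factor that amplifies type I interferon responses, read 12.42, 12.51 and 12.58 in wild type, 12.55, 12.42 and 12.71 in Ccl2-/-, and 11.94, 11.90 and 11.92 in Ccr2-/-. The Ccl2-/- arrays mixed with wild type and the Ccr2-/- arrays lay below both (0.643-fold of Ccl2-/-, adjusted p = 0.0148). Irf5, which acts downstream of toll-like receptors, was 0.749-fold and Irf9, a factor of the interferon response, was 0.837-fold, and both were graded. Irf4, a factor of dendritic cells and lymphocytes that the study names, had a log2 difference of -0.56 ± 0.27 (SE) between the knockouts and did not pass (adjusted p = 0.31). Its Ccl2-/- arrays read 8.84, 9.59 and 10.09 against 8.81, 9.09 and 8.95 in Ccr2-/- and 10.70, 10.53 and 10.54 in wild type, so the knockouts overlapped each other below wild type. Among 13 interferon receptor and JAK-STAT genes, 2 were called, both lower, and the median of -0.10 was near that of all genes (-0.08). Stat2 was 0.747-fold of Ccl2-/- with the receptor-only placement and Ifngr2, a chain of the interferon-gamma receptor, was 0.704-fold and graded. Ifnar1 and Ifnar2, the chains of the type I interferon receptor, had log2 differences of -0.10 and -0.26 and did not pass (adjusted p = 0.399 and 0.104). Of 8 interferon-gamma inducible GTPases measured, none was called by limma and the median was 0.13. At an unadjusted p under 0.05 there were 4 genes, against 18.6% of all genes. The GTPases had no call after centring and 1 call after quantile normalization. After centring, none of the interferon regulatory factors was called and 1 JAK-STAT gene was called, a higher one. Without Ccl2-/- replicate 1, both lists had 4 calls and the GTPases 1, and without Ccr2-/- replicate 1 or replicate 2 none of the 3 lists had any.

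Receptors for microbial products let monocytes sense bacteria and viruses. Of 15 toll-like receptors and their helper proteins, 8 were called lower in Ccr2-/- than in Ccl2-/- and none higher, against 2.87% of all genes called lower. The list's median was -0.42, against -0.08 for all genes. Receptors of endosomes, which sense nucleic acids, were among the called genes. Tlr9, the DNA sensor, read 11.53, 11.62 and 11.88 in Ccl2-/- and from 10.83 to 11.01 in Ccr2-/-, against 11.72, 11.81 and 11.86 in wild type (0.603-fold of Ccl2-/-, adjusted p = 0.0159). Tlr7 and Tlr8, sensors of single-stranded RNA, were 0.702-fold and 0.679-fold, Tlr13, a sensor of bacterial ribosomal RNA, was 0.758-fold, and Unc93b1, which carries these receptors to the endosome, was 0.738-fold. All of them but Unc93b1, which was graded, overlapped wild type in Ccl2-/-. At the surface, Tlr2 and Tlr6, partners in the sensing of bacterial lipoproteins, were 0.624-fold and 0.751-fold and graded, and Cd14, the co-receptor for lipopolysaccharide, was 0.509-fold. Of 16 NOD-like receptor and inflammasome genes, 4 were called lower and 1 higher, against 2.87% and 0.732% of all genes. Nlrp3 was 0.597-fold, Nlrp1b 0.626-fold, Nlrx1 0.692-fold and Casp4 0.728-fold of Ccl2-/-, and Nlrc3, which dampens T cell activation, was 1.65-fold (adjusted p = 0.0234). After centring, none of the toll-like receptors and 1 of the NOD-like receptor genes was called. Without Ccl2-/- replicate 1 the counts were 11 and 7, without Ccr2-/- replicate 1 or replicate 2 none was called in either list, and in the other fits that left out an array they were 2 to 5 and 1 to 3.

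Of 15 measured genes of inflammatory Ly-6Chi monocytes, 8 were called lower in Ccr2-/-, against 2.87% of all genes. All 15 had a negative difference (median -0.60, 0.659-fold). Of the 15, 8 were graded, 3 were receptor-only and 4 had neither placement. Of all genes, 6.53% were graded and 9.95% receptor-only. The list's median difference from wild type was -0.43 in Ccl2-/- and -1.32 in Ccr2-/-. Ccr2, the deleted gene, is itself 1 of the 8 calls in this list and also stands in that of chemokine receptors. F13a1, a subunit of coagulation factor XIII, read 13.11, 12.99 and 12.90 in wild type, 12.48, 12.34 and 12.56 in Ccl2-/-, and 11.53, 11.66 and 11.77 in Ccr2-/-. The 3 genotypes did not overlap and the fold of Ccr2-/- over Ccl2-/- was 0.570 (adjusted p = 0.0102). Mmp8, neutrophil collagenase, fell in the same steps, from 12.34, 11.74 and 11.75 in wild type to 11.09, 10.95 and 11.25 in Ccl2-/- and 9.66, 9.96 and 10.08 in Ccr2-/- (0.438-fold of Ccl2-/-, adjusted p = 0.0174). Mgst1 was 0.593-fold, Hp, haptoglobin, 0.540-fold, Plac8 0.691-fold and Fn1, fibronectin, 0.732-fold, all graded. Of 20 genes of patrolling Ly-6Clo monocytes, 1 was called, Apoe, apolipoprotein E, at 0.734-fold, and the list's median of -0.09 became 0.02 after centring. The 1 call in that list after quantile normalization was a higher gene, centring left none, and there were 3 without Ccl2-/- replicate 1. The Ly-6Chi list had 8 calls after quantile normalization and 5 after centring. It had 12 without Ccl2-/- replicate 1, 4 without Ccl2-/- replicate 3 and 1, Ccr2 itself, without Ccr2-/- replicate 1 or replicate 2.

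Of 19 pan-monocyte and macrophage genes, which both kinds of monocyte share, 9 were called lower in Ccr2-/- and 10 did not pass (median -0.34). Of all genes, 2.87% were called lower. The receptor-only placement was that of 13 of the 19, against 9.95% of all genes. Fcgr1, the high-affinity receptor for IgG, read 11.33, 11.26 and 11.09 in wild type, 11.06, 11.03 and 11.40 in Ccl2-/-, and 9.91, 10.10 and 10.47 in Ccr2-/- (0.498-fold of Ccl2-/-, adjusted p = 0.0191). Mpeg1, perforin-2, was 0.779-fold, Cd68 0.791-fold and Ctss, cathepsin S, 0.792-fold of Ccl2-/-. Cd33, a sialic acid-binding receptor, was 0.570-fold. Csf1r, the receptor of the monocyte growth factor M-CSF, read 13.05, 13.06 and 13.20 in Ccl2-/- and 12.69, 12.83 and 12.84 in Ccr2-/-, against 13.17, 13.14 and 13.16 in wild type. The knockouts did not overlap, but the difference of -0.32 ± 0.07 (SE) just missed the threshold (adjusted p = 0.0511). Among 17 myeloid growth factor receptors, 3 were called, all lower in Ccr2-/-. Csf3r, the G-CSF receptor, was 0.657-fold, Il6ra, the interleukin-6 receptor, 0.736-fold and Tnfrsf1a, a receptor of TNF, 0.796-fold. Csf3r also stands in the list of neutrophil markers, in which it and Cd177 were the 2 called genes of 17. The pan-monocyte list had 3 calls after centring and 4 after quantile normalization, none without Ccr2-/- replicate 1 or replicate 2, 9 without Ccl2-/- replicate 1 and 2 to 4 without any other array. The growth factor receptors had 4 without Ccl2-/- replicate 1, none without Ccr2-/- replicate 1 or replicate 2 and none after centring.

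Of 28 myeloid transcription factors, 9 were called lower in Ccr2-/- and none higher (median -0.28), against 2.87% of all genes called lower. Fos, a subunit of AP-1, read 12.20, 11.98 and 11.72 in wild type, 11.85, 11.76 and 11.95 in Ccl2-/-, and 10.65, 10.60 and 10.56 in Ccr2-/-. Wild type and Ccl2-/- mixed, and Ccr2-/- was 0.419-fold of Ccl2-/- (adjusted p = 0.00482). Ahr, the aryl hydrocarbon receptor, was graded, with 11.27, 11.07 and 11.15 in wild type, 10.56, 10.40 and 10.67 in Ccl2-/-, and 9.57, 9.66 and 9.68 in Ccr2-/- (0.533-fold, adjusted p = 0.00593). Tfec and Mitf, members of 1 family of factors that act on lysosomal and macrophage genes, were 0.508-fold and 0.637-fold and both graded. The C/EBP factors Cebpa, Cebpb and Cebpd were 0.559-fold, 0.742-fold and 0.718-fold, and Maf and Bhlhe41 were 0.693-fold and 0.677-fold. Klf4, a factor of monocyte differentiation, had a log2 difference of -0.47 ± 0.11 (SE) and did not pass (adjusted p = 0.0603), and Spi1, PU.1, had -0.31 (adjusted p = 0.0642). In the immediate-early list, of which Fos is a member, 3 of 19 genes were called, all lower. Atf3 was graded at 0.477-fold and Dusp1, a phosphatase of MAP kinases, was 0.722-fold. Its Ccl2-/- arrays, at 13.49, 13.41 and 13.42, lay above wild type (13.24, 13.33 and 13.23) and its Ccr2-/- arrays, at 12.91, 12.98 and 13.02, lay below. The myeloid factors had 4 calls after centring and 5 after quantile normalization, with 11 without Ccl2-/- replicate 1, 2 without Ccr2-/- replicate 1 or replicate 2 and 5 or 6 without any other array. The immediate-early list had 1 without Ccr2-/- replicate 1 or replicate 2 and 3 without any other.

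Coagulation factors and lipid mediators are made and sensed by monocytes. Of 18 coagulation and wound factors, 7 were called lower in Ccr2-/- and none higher (median -0.31), against 2.87% of all genes called lower. Thbs1, thrombospondin-1, a matrix protein that holds back new vessels, read 11.43, 11.52 and 11.47 in wild type, 11.51, 11.28 and 11.62 in Ccl2-/-, and 10.23, 10.21 and 10.39 in Ccr2-/-. Its Ccl2-/- arrays spread around wild type, and Ccr2-/- was 0.437-fold of Ccl2-/- (adjusted p = 0.00443). Plaur, the urokinase receptor, was 0.621-fold and Thbd, thrombomodulin, 0.670-fold, both receptor-only, whereas F10 and F5, coagulation factors X and V, were 0.529-fold and 0.636-fold and graded. In the eicosanoid, PAF and formyl peptide pathway, 6 of 15 genes were called lower, and all 6 were graded. Tbxas1, thromboxane synthase, was 0.458-fold, Ptafr, the receptor of platelet-activating factor, 0.518-fold, Cysltr1, a receptor of cysteinyl leukotrienes, 0.521-fold and Ltb4r1, the leukotriene B4 receptor, 0.543-fold. Pla2g7, which breaks platelet-activating factor down, was 0.768-fold and Alox5ap, which hands arachidonic acid to 5-lipoxygenase, 0.791-fold. After centring, these lists had 3 and 4 calls, the latter with 3 lower and 1 higher, and without Ccr2-/- replicate 1 or replicate 2 they had 1 and 0 calls. Without Ccl2-/- replicate 1 the counts were 7 and 8, and without Ccl2-/- replicate 3 both were 2.

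All called genes of uptake and breakdown were lower in Ccr2-/-. Of 23 lysosomal genes, 8 were called lower (median -0.34), 7 of them graded, against 2.87% of all genes called lower. Npc2, which carries cholesterol out of the lysosome, read 12.69, 12.69 and 12.59 in wild type, 12.39, 12.32 and 12.41 in Ccl2-/-, and 11.78, 11.82 and 11.92 in Ccr2-/- (0.690-fold of Ccl2-/-, adjusted p = 0.013). Ctsh, cathepsin H, was 0.643-fold, Hexa, a hexosaminidase, 0.704-fold, Grn, progranulin, 0.743-fold and Lamp1 0.782-fold. Of 9 ABC lipid transporters, 4 were called lower and all 4 were graded. Abca9 stepped from 11.65, 11.64 and 11.46 in wild type to 10.81, 10.72 and 10.99 in Ccl2-/- and 9.52, 9.70 and 9.75 in Ccr2-/- (0.440-fold of Ccl2-/-, adjusted p = 0.00454). Abca6 was 0.577-fold, Abcd2 0.588-fold and Abca3 0.653-fold. Cyp27a1, which makes 27-hydroxycholesterol and stands in no list, had the smallest adjusted p after Mid1 and Ccr2 together with Dhx40 (0.528-fold, adjusted p = 0.00196). Among 18 scavenger receptor and alternative activation genes, 5 were called lower, among 19 C-type lectin receptors 4 and among 21 Fc receptor genes 4, with no gene higher in any of the 3 lists. Clec10a, a galactose-binding lectin, was 0.480-fold, Clec7a, dectin-1, 0.668-fold, Mrc1, the mannose receptor, 0.713-fold and Scarb1, which takes up cholesterol esters, 0.694-fold. Fcgr3 and Fcgr2b, low-affinity receptors for IgG, were 0.722-fold and 0.736-fold, with Fcgr1 as above. Msr1, a scavenger receptor named by the study, had a log2 difference of -0.60 ± 0.17 (SE) and did not pass (adjusted p = 0.0928). After centring, no lysosomal, lectin or scavenger gene was called, 2 ABC transporters and 1 Fc receptor gene were, and the medians of all 5 lists stayed below 0. Lysosomal genes had 10 calls when Ccl2-/- replicate 1 was left out, 2 and 1 for replicates 2 and 3, and 0 without Ccr2-/- replicate 1 or replicate 2. The ABC transporters had 2 calls without Ccr2-/- replicate 1 or replicate 2 and 4 without any other array. Without Ccl2-/- replicate 1 the scavenger, lectin and Fc receptor lists had 7, 7 and 5 calls, and without any other array at most 1, 1 and 2.

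**Figure D4:**
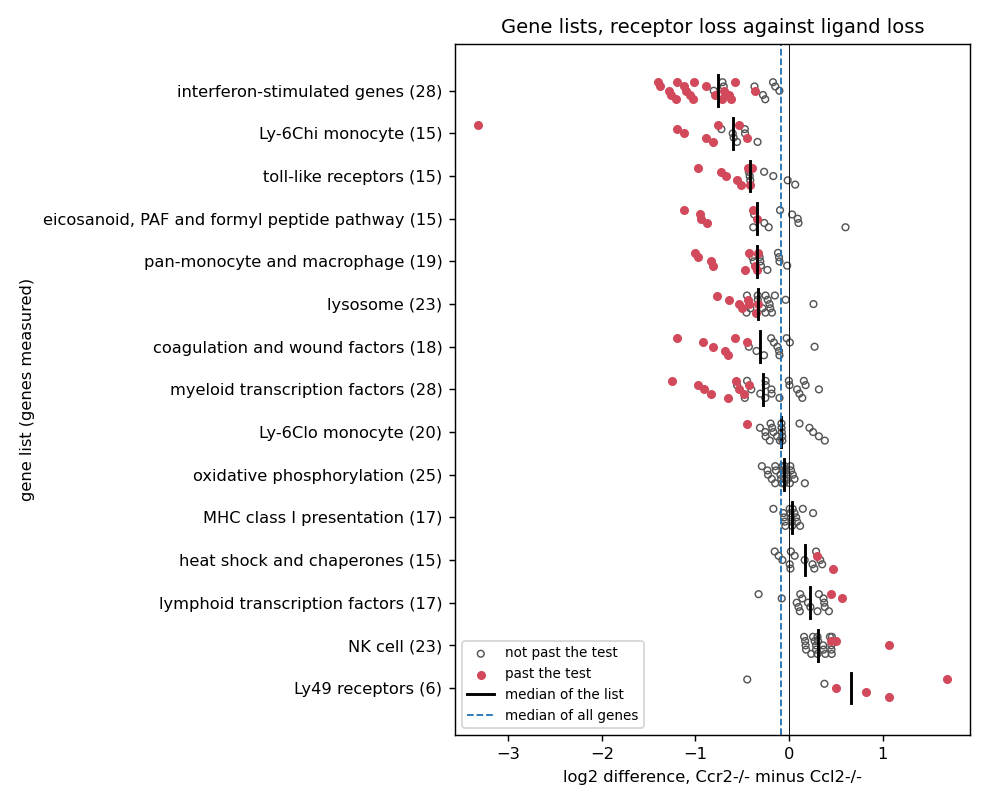
Log2 difference of Ccr2-/- minus Ccl2-/- (horizontal axis) for the members of 15 gene lists, with 1 point per gene measured, filled where past the test, a black bar at the list's median and a dashed line at the median of all genes (-0.08). Interferon-stimulated and Ly-6Chi genes lie farthest to the left, and NK cell and Ly49 genes lie to the right.

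Chemokines draw leukocytes to tissue, and cytokines act on cells nearby. Of 20 chemokines, 4 were called lower in Ccr2-/-, against 2.87% of all genes, and of 23 chemokine receptors Ccr2 was called lower and Ccr3 higher. Ccl24, an attractant of eosinophils, was 0.499-fold, Cxcl16 0.687-fold, Ccl9 0.781-fold and Cxcl2, an attractant of neutrophils, 0.703-fold of Ccl2-/-. The other ligands of CCR2, Ccl7 and Ccl12, had log2 differences of -0.06, which turned positive under both scalings, and 0.18, and did not pass (adjusted p = 0.844 and 0.595), and Ccl2 had -0.64 ± 0.18 (adjusted p = 0.104). Of 18 inflammatory cytokines, 1 was called higher and 3 lower. Osm, oncostatin M, read 9.70, 9.53 and 9.41 in wild type, 9.71, 9.74 and 9.62 in Ccl2-/-, and 10.39, 10.37 and 10.46 in Ccr2-/-, so that Ccr2-/- lay above both (1.64-fold of Ccl2-/-, adjusted p = 0.0109). Il1rn, the interleukin-1 receptor antagonist, Tgfb1 and Il15 were 0.774-fold, 0.795-fold and 0.692-fold. After centring, no chemokine was called lower and 1 higher, and Osm kept its call. The chemokine count was 5 without Ccl2-/- replicate 1, 1 without wild type replicate 3 or Ccr2-/- replicate 3, and 0 in the other 6 fits that left out an array. The cytokine count was 7 without Ccl2-/- replicate 1, 0 without Ccr2-/- replicate 1 or replicate 2, and 1 or 2 without any other array. The receptors had 4 calls without Ccl2-/- replicate 1 and 2 or 3 without any other.

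The genes that were higher in the receptor knockout included receptors of NK cells. Of 23 NK cell genes, 3 were called higher in Ccr2-/- than in Ccl2-/- and none lower, against 0.732% of all genes called higher, and all 23 had a positive difference (median 0.31, 1.24-fold). The list was graded in 19 of its 23 genes, against 6.53% of all genes, with median differences from wild type of 0.47 in Ccl2-/- and 0.79 in Ccr2-/-. Its mean level was 11.30 to 11.43 in the wild type arrays, 11.65 to 11.97 in Ccl2-/- and 12.17 to 12.24 in Ccr2-/-. Tbx21, T-bet, a factor of NK and T cells, read 11.87, 11.98 and 11.86 in wild type, 12.51, 12.44 and 12.17 in Ccl2-/-, and 12.84, 12.84 and 12.78 in Ccr2-/- (1.37-fold of Ccl2-/-, adjusted p = 0.0406). Ncr1, the NK receptor NKp46, had a log2 difference of 0.30 ± 0.07 (SE) and did not pass (adjusted p = 0.0613), nor did Gzmb, granzyme B (0.37, adjusted p = 0.0564), or Prf1, perforin (0.29, adjusted p = 0.0995). The call count of the NK list moved with the processing and with single arrays. It was 8 after centring, 4 after quantile normalization, 11 without Ccl2-/- replicate 1 and 0 without Ccr2-/- replicate 1 or replicate 2.

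The Ly49 receptors read MHC class I on NK cells, and Klra3 and Klra8 stand in the NK list as well. Of 6 measured, 4 were called higher in Ccr2-/-, against 0.732% of all genes. There were 5 calls without Ccl2-/- replicate 1, 2 without Ccl2-/- replicate 2 or 3 and 0 without Ccr2-/- replicate 1 or replicate 2. Klra5 read 7.23, 7.74 and 7.73 in wild type, 7.36, 8.23 and 8.13 in Ccl2-/-, and 9.70, 9.66 and 9.42 in Ccr2-/-. The Ccl2-/- arrays overlapped wild type, and Ccr2-/- was 3.22-fold of Ccl2-/- (adjusted p = 0.0159). Klra8 was 2.10-fold and Klra6 1.76-fold, both with the receptor-only placement, and Klra3 was 1.41-fold and graded. These names are those of the array's annotation, and how far the probes of Ly49 genes read each other was not tested. Klra2, which myeloid cells express, went the other way with a log2 difference of -0.45 and did not pass (adjusted p = 0.055). Of 20 NK and T cell signalling genes, 2 were called higher, Sh2d1a, the adaptor SAP, at 1.62-fold and Cd96 at 1.54-fold, and all 20 had a positive difference (median 0.44). Of 17 lymphoid transcription factors, Tbx21 and Gata3 (1.47-fold) were called higher and none lower. Runx3 and Ets1, which the study names, had log2 differences of 0.32 and 0.38 and did not pass (adjusted p = 0.0728 and 0.148). Of 15 cytotoxic granule genes, the 1 called was Lamp1, a general lysosomal protein, which was lower. Of 15 heat shock genes and chaperones, Hsph1 (1.38-fold) and Hspd1 (1.23-fold) were called higher, both graded, and the list's mean level was 11.32 to 11.33 in wild type, 11.57 to 11.62 in Ccl2-/- and 11.70 to 11.78 in Ccr2-/-. Without Ccl2-/- replicate 1, the signalling, lymphoid factor, granule and heat shock lists had 9, 7, 2 and 4 calls. Without any other array the lymphoid factor and granule lists had none, and the signalling and heat shock lists had 0 or 1.

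Single genes outside the lists made up the rest of the highest folds. Jchain, the joining chain of secreted antibodies, was 2.19-fold of Ccl2-/-, Gpx8, a glutathione peroxidase of the endoplasmic reticulum, 1.93-fold, Cd200r4, a relative of the CD200 receptor, 1.89-fold, Ehd3 1.82-fold, Tent5c, Samd3 and Gimap7 1.81-fold, Cldnd2 1.80-fold, Ddx43 1.75-fold and P3h4 1.71-fold. Of these, Gpx8, Cd200r4, Samd3, Gimap7, Cldnd2 and Ddx43 were graded and Jchain, Ehd3, Tent5c and P3h4 were receptor-only. At the low end, outside the groups above, were Adap2, a regulator of ARF6, with 9.80, 9.70 and 10.16 in Ccl2-/- and 8.24, 8.45 and 8.64 in Ccr2-/- (0.367-fold, adjusted p = 0.00593), Axl, a receptor kinase for dying cells (0.424-fold), Gab1, an adaptor of growth factor receptors (0.426-fold), and Jaml, an adhesion molecule (0.434-fold). Ms4a8a was 0.441-fold, Cd177 0.446-fold, Stard8 0.517-fold and Marchf1, a ubiquitin ligase for MHC class II, 0.615-fold. All 4 were graded. Of the genes at the low end, Cd177 stands in the neutrophil list above and Jaml in that of integrins and adhesion.

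Markers of other cells were compared as well, since the fraction may hold them. No T cell gene (of 15), B cell gene (of 13), basophil and mast cell gene (of 13) or erythroid gene (of 5) was called by limma. At an unadjusted p under 0.05 these lists had 1, 3, 5 and 1 genes, against 18.6% of all genes. The mean level of the T cell list was 9.35 to 9.42 in wild type, 8.85 to 9.46 in Ccl2-/- and 8.80 to 10.17 in Ccr2-/-, so that the arrays of both knockouts spread more than those of wild type. Of its 15 genes 14 had a positive difference, with a median of 0.43, and Lat, Lef1 and Bcl11b of this list stand also among the signalling genes or lymphoid factors above. The basophil and mast cell list was 8.56 to 9.23, 8.13 to 8.45 and 8.47 to 9.09 in the same order, with a median difference of 0.59 between the knockouts. Of 8 eosinophil genes 1 was called, Ccr3, which was higher, and of 12 platelet genes 1, Itgb3, which was lower. Without Ccl2-/- replicate 1, 2 platelet genes were called. Ccr3 encodes the protein by which eosinophils were removed, and 5 of the 8 eosinophil genes had a negative difference (median -0.08), with 2 higher at an unadjusted p under 0.05. Alox15, a lipoxygenase of this list, had a log2 difference of 0.96 ± 0.24 (SE, adjusted p = 0.067), and Prg2, an eosinophil granule protein, had -0.13 (adjusted p = 0.596). Of these lists of other cells, the NK list alone had 3 genotypes whose array levels did not overlap. The part that any of these cells had in the differences between the knockouts was not tested.

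**Figure D5:**
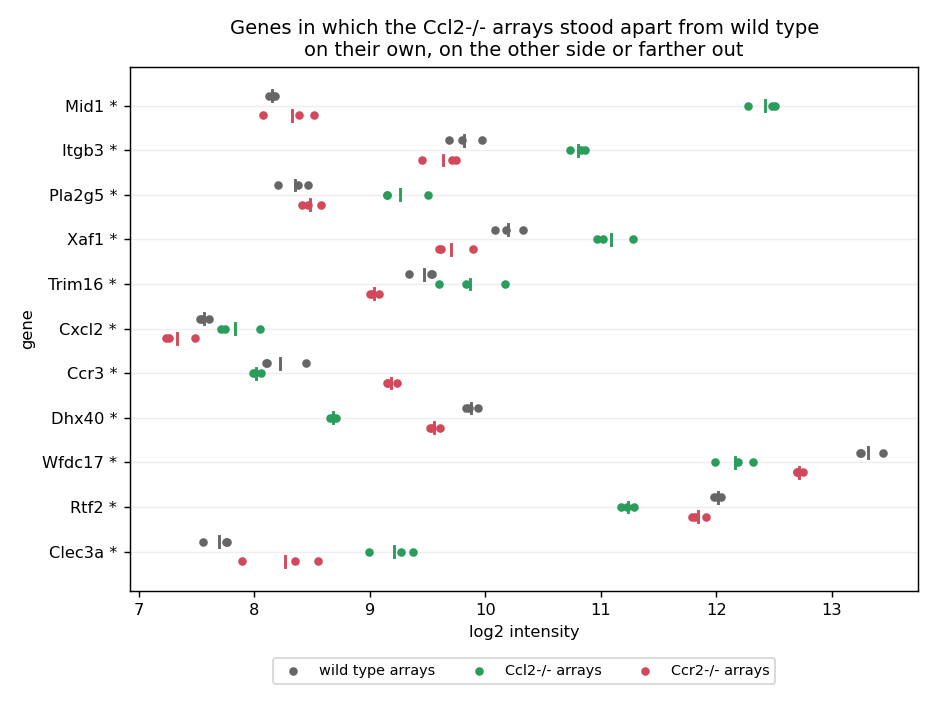
Log2 intensity (horizontal axis) of 11 genes past the direct test, with 1 point per array and a vertical tick at each genotype's mean. In Mid1, Itgb3 and Pla2g5 only the Ccl2-/- arrays left the wild type range, in Xaf1, Trim16, Cxcl2 and Ccr3 the knockouts lie on opposite sides of it, and in Dhx40, Wfdc17, Rtf2 and Clec3a Ccl2-/- lies farther from wild type than Ccr2-/-.

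In 36 of the 718 genes the ligand knockout stood apart from wild type alone, on the other side from the receptor knockout or farther out. Mid1, a ubiquitin ligase of microtubules encoded on chromosome X, had the largest difference of all genes. It read 8.16, 8.13 and 8.18 in wild type, 12.28, 12.51 and 12.48 in Ccl2-/-, and 8.52, 8.38 and 8.07 in Ccr2-/-. The Ccr2-/- arrays mixed with wild type and the Ccl2-/- arrays lay far above, so that Ccr2-/- was 0.0583-fold of Ccl2-/- (log2 difference -4.10 ± 0.12, SE, adjusted p = 4.43e-06). Itgb3, the integrin beta-3 chain, read 9.69, 9.80 and 9.97 in wild type, 10.73, 10.86 and 10.83 in Ccl2-/-, and 9.71, 9.75 and 9.45 in Ccr2-/- (0.445-fold of Ccl2-/-, adjusted p = 0.00482). Pla2g5, a secreted phospholipase, was 0.583-fold and Glyatl3 0.690-fold, again with Ccl2-/- above wild type, whereas Alox8, a lipoxygenase, and Rpl14, a ribosomal protein, were 1.46-fold and 1.49-fold with Ccl2-/- below it.

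The 20 genes on opposite sides of wild type included Xaf1, an interferon-inducible partner of XIAP. Xaf1 read 10.08, 10.18 and 10.32 in wild type, 11.02, 10.96 and 11.28 in Ccl2-/-, and 9.90, 9.62 and 9.60 in Ccr2-/- (0.383-fold of Ccl2-/-, adjusted p = 0.00454). It was the 1 member of the interferon-stimulated list with that placement. Trim16, Cst12 and Ttc5 had the same order at 0.560-fold, 0.566-fold and 0.659-fold, as had Cxcl2 and Dusp1. Ccr3, the eotaxin receptor, had the reverse order, with 8.10, 8.45 and 8.11 in wild type, from 7.99 to 8.06 in Ccl2-/-, and 9.16, 9.24 and 9.15 in Ccr2-/- (2.24-fold of Ccl2-/-, adjusted p = 0.00454). Its Ccl2-/- arrays lay just below wild type and its Ccr2-/- arrays clearly above. In 4 genes both knockouts left wild type on 1 side with Ccl2-/- farther out, and all 4 are named here after their values were seen. Dhx40, a helicase, read 9.86, 9.83 and 9.94 in wild type, 8.66, 8.68 and 8.70 in Ccl2-/-, and 9.61, 9.54 and 9.52 in Ccr2-/- (1.84-fold of Ccl2-/-, adjusted p = 0.00196). Wfdc17 was 1.47-fold and Rtf2 1.52-fold in the same order, and Clec3a was 0.519-fold with Ccl2-/- above Ccr2-/- above wild type. Of these 36 genes, 13 lie on chromosome 11, the chromosome of Ccl2 (36.1%), against 7.86% of all genes tested, 8.97% of the graded genes and 10.3% of the receptor-only genes. Chromosome 11 was looked at after these values were seen, and no test was made of its share.

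The neighbours of the deleted genes were read with the same test. On chromosome 9, the 25 measured genes next to Ccr2, all on 1 side of it, held 2 called genes (8.0%, against 3.6% of all genes), both higher in Ccr2-/-, Fyco1 at 1.46-fold and Ccr3 at 2.24-fold. Fyco1, which links vesicles to microtubules, read 10.07, 10.37 and 10.28 in Ccl2-/- and 10.96, 10.75 and 10.65 in Ccr2-/-, with wild type at 10.19, 10.24 and 10.27 among the Ccl2-/- arrays. Among the 50 measured neighbours of Ccl2 on chromosome 11, 5 were called, all lower in Ccr2-/-. Apart from Adap2 they were Schlafen genes, interferon-inducible regulators of growth. Slfn4 was 0.465-fold, Slfn5 0.508-fold, Slfn1 0.551-fold and Slfn2 0.709-fold of Ccl2-/-. Slfn5 read 12.37, 12.39 and 12.50 in wild type, 11.90, 11.91 and 12.28 in Ccl2-/-, and 11.07, 11.13 and 10.96 in Ccr2-/- (adjusted p = 0.00906). Slfn1, Slfn2 and Slfn5 were graded, while Slfn4 and Adap2 were receptor-only, so the Ccr2-/- arrays and not the Ccl2-/- arrays lay farthest from wild type in all 5.

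Several lists had no call. None of 25 oxidative phosphorylation genes, 17 MHC class I presentation genes or 10 S1P receptor and egress genes was called by limma. At an unadjusted p under 0.05 these lists had 2, 2 and 4 genes, against 18.6% of all genes. The list medians were -0.05, 0.03 and -0.12. Without Ccl2-/- replicate 1, the oxidative phosphorylation list and the S1P list had 1 call each. Of 20 cytoplasmic ribosomal protein genes 1 was called, Rpl14, and of 18 cell cycle genes 1, Mcm4, which was 1.31-fold. Of 8 MHC class II genes 1 was called, of 12 conventional dendritic cell genes 1 and of 9 plasmacytoid dendritic cell genes 2, all lower in Ccr2-/-. Among genes of matrix and adhesion, 2 of 18 metalloproteinase and ADAM genes, 4 of 20 integrin and adhesion genes, 2 of 17 semaphorins and plexins, 3 of 16 complement genes, 1 of 16 TGF-beta and BMP receptors and 1 of 9 clade B serpins were called, all lower, against 2.87% of all genes. Without Ccl2-/- replicate 1, 4 cell cycle, 4 metalloproteinase and ADAM and 4 TGF-beta and BMP receptor genes were called. That fit also called 5 integrin and adhesion genes, 3 semaphorins and plexins, 2 serpins and 1 plasmacytoid dendritic cell gene. Without Ccr2-/- replicate 1 or replicate 2 the 1 call left in these lists was an integrin or adhesion gene. Plxnd1, a semaphorin receptor, was 0.492-fold, Acvrl1, the receptor ALK1, 0.552-fold and Cfb, complement factor B, 0.526-fold of Ccl2-/-, and Itga1, an integrin of collagen, was graded at 0.737-fold. Flt3, a receptor of early progenitors that the study names, read 8.20, 8.29 and 8.36 in Ccl2-/- and 8.22, 8.40 and 8.15 in Ccr2-/-, both below wild type at 8.92, 9.08 and 9.03. The knockouts overlapped for Flt3, with a log2 difference of -0.03 ± 0.09 (SE, adjusted p = 0.88). Tgfbr3 and Mr1, also named by the study, had differences of -0.18 and 0.26 and did not pass (adjusted p = 0.33 and 0.226).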

How the data were processed

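The authors scanned Affymetrix Mouse Gene 1.0 ST arrays and deposited linear intensities that they computed with dChip, 1 value per transcript cluster and array. The version, the normalization between arrays and the expression model are not given in the sources used here, and a shift of a whole array therefore stays in the values as deposited. Arrays have no read depth, and their number, 3 per genotype, limits the precision. Labels call them biological replicates, each a pool of 5 mice, so every p measures the spread between pools.

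Symbols came from the platform annotation, updated through RefSeq (21698 of 21789 clusters with 1 symbol matched). The tests across genes leave out 1621 clusters that carry more than 1 symbol and 12102 that carry none. Of several clusters of a gene (999 genes) the one with the highest mean was used. Values under 1 (19 in all) were set to 1 before log2. limma 3.58.1 (R 4.3.3) was run with the 9 arrays in 1 model of genotype, and p-values were adjusted by Benjamini-Hochberg over 19938 genes. The procedure was tested on simulated data with the same spread in each genotype and no shift of a whole array. That test therefore does not cover the shifts seen in these arrays. Fold is 2 to the power of the log2 difference. A gene was placed relative to wild type by whether the arrays of the genotypes overlapped.

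The comparison and the 49 gene lists, written by hand from general knowledge, were chosen with earlier results of these data known, and lists share some genes. Named were Ccr2, Ccl2, the 15 highest and 15 lowest folds among called genes with a group mean of at least 100 linear units, the 4 list members with the smallest p, the 6 largest differences of each placement, genes the study names and called neighbours among 25 on each side. Not all of these are printed, and further list members, the ligands of CCR2 and genes that kept their call in every fit were added after their values were seen.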

Additional observations from a re-analysis of the deposited data

Results flagged for a closer look

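In 7 of the genes named above the knockouts lay on opposite sides of all wild type arrays and differed in the direct test. Ccl2-/- was above and Ccr2-/- below wild type for Xaf1 (log2 difference of Ccr2-/- minus Ccl2-/- -1.38), Trim16 (-0.84), Cst12 (-0.82), Ttc5 (-0.60), Cxcl2 (-0.51) and Dusp1 (-0.47). For Ccr3 the order was the other way (1.17). This is the limma test of the difference between the effects of the knockouts, whose changes from wild type share the wild type arrays.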

How the results depend on the processing

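With 3 pools per genotype and whole-array shifts left in the values, the counts moved with the setting. The cause was not tested. The called genes measured in a setting, 715 with the intensity filter and 718 otherwise, kept their sign. Only quantile normalization and the mean of a gene's clusters could have turned a sign. Elsewhere it was fixed beforehand, since the knockout arrays of these genes did not overlap and centring moved each gene by less than its difference. The 718 calls became 468 with quantile normalization, 261 with each array centred on its median, 1344 with an intensity trend in the variances, 17 in a fit of the 6 knockout arrays alone, 3709 at an unadjusted p under 0.05 and between 22 and 1189 when 1 array was left out. Genes higher in Ccr2-/- made up 20.3% of the calls as deposited, 39.5% after quantile normalization and 71.6% after centring. At the size limits of the methods, higher against lower counts were 954 to 1267 after quantile normalization and 1390 to 852 after centring. The placements moved likewise. Graded genes, with Ccr2-/- farther out, numbered 148 after centring, 687 with the trend, 7 with 6 arrays, 1072 unadjusted and 11 to 626 without 1 array. Genes with only the receptor knockout outside wild type numbered 168 with quantile normalization, then 98, 604, 5, 1501 and 6 to 441 in that order. Genes with only the ligand knockout outside numbered 6, 21, 2, 272 and 1 to 63. Genes on opposite sides numbered 5 after centring, 2 with 6 arrays, 54 unadjusted and 2 to 53 without 1 array. A higher intensity filter, an offset and the mean of a gene's clusters left 803, 859 and 703 calls.

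The replicate numbers were not taken as pairs, since only 4 of 9 same-numbered pairs correlated over 0.1 in their deviations (-0.18 to 0.56) and an array's best partner carried its own number in 6 of 18 cases. With the number as a replicate block, 167 genes were called, of which 89 graded, 68 with only the receptor knockout outside, 4 with only the ligand knockout outside and 4 on opposite sides.

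Among the named genes, signs turned only in genes that were not called. Ccl7 was 0.012 with quantile normalization, 0.05 after centring and -0.171 to 0.091 without 1 array. Flt3 was 0.037, 0.081 and -0.101 to 0.024 in the same order, Bcl11b was -0.083 to 0.337 without 1 array, and Ddx58 and Ifnar1 were 0.006 and 0.007 after centring.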
